A study of Mus musculus with 111 samples.

Results

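DNA methylation and demethylation genes were followed in single mouse 2-cell embryos: the methyltransferases Dnmt1, Dnmt3a and Dnmt3b, the cofactor Dnmt3l, the maintenance factor Uhrf1, the protective factor Dppa3 and the dioxygenases Tet1, Tet2 and Tet3. They are 9 named genes, taken by symbol from 35973 gene names in the transcript count table, and all 9 passed the filter on low counts that left 13396 genes for testing. Their RNA was detected in every embryo. After knockdown of the nuclear receptor Nr5a2 in the oocyte, none of the 9 differed from control embryos beyond the spread between embryos. The RNA of 3 of them, Uhrf1, Tet3 and Dnmt3l, varied together from embryo to embryo within every group. Over all embryos their correlations were at least 0.6, an absolute size that 10.4% of all gene pairs compared also reached.

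DNA methylation is set on the oocyte genome by DNMT3A with its catalytically inactive partner DNMT3L, and is copied after replication by DNMT1, which UHRF1 brings to hemimethylated sites. TET enzymes oxidise 5-methylcytosine, and TET3 from the egg is the main one acting on the paternal genome of the mouse zygote. DPPA3 (also known as Stella) shields maternal methylation from this oxidation and limits UHRF1 and DNMT1 in the oocyte nucleus, and the early embryo is known for a global fall in methylation. Methylation itself was not measured here: all values are levels of polyadenylated RNA, which at the 2-cell stage is a mixture of RNA left from the egg and RNA from the newly active embryonic genome.

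The embryos were of strain B6129F1. Oocytes at the germinal vesicle (GV) stage, in meiotic arrest, received a pair of siRNAs at 20 µM each, against Nr5a2 in the knockdown arm or control siRNAs in the control arm, with 150 ng per µl of marker RNA coding for H2B-rsEGFP in the knockdown arm and H2B-EGFP in the control arm. They stayed arrested for 5 h, matured for 12 h, were fertilized in vitro and were grown in KSOM medium to the 2-cell stage, so every embryo, controls included, had been injected, matured and fertilized outside the animal. The arms thus differed in the marker RNA as well as in the siRNAs, and effects of these cannot be told apart. There were 55 knockdown embryos (16 from experiment 1, 16 from experiment 2 and 23 from experiment 3) and 56 control embryos (24, 7 and 25). Each library is 1 whole embryo, so fewer cells with a transcript and less of it per cell cannot be told apart, and every p-value rests on the spread of single embryos, which were treated as independent.

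Library totals ran from 1967966 to 21373056 estimated counts with a median of 4775981. Levels are CPM, counts as a share of the library total, scaled by the trimmed mean of M values (TMM). Nr5a2 itself fell by 1.17 on the log2 scale in knockdown embryos (SE 0.12, edgeR adjusted p = 3.7e-12), and 52 of 55 knockdown embryos were lower than the median control of the same experiment. Transcripts typical of the 2-cell stage, 22 of 24 of them at a median over 1 CPM, summed to a median of 4311 CPM in knockdown and 4176 CPM in control embryos, and all 20 oocyte transcripts on the list were still present, at a median sum of 6641 CPM in knockdown and 7055 CPM in control embryos. The spermatid markers, all 8 at a median under 1 CPM, summed to at most 9.91 CPM in knockdown and 8.91 CPM in control embryos. Of the cumulus cell markers, 5 of 12 had a median over 1 CPM and 7, among them Foxl2 and Fshr, were under it. The 12 summed to a median of 109 CPM in knockdown embryos (18.1 to 275) and 108 CPM in control embryos (30.4 to 170), most of it from Amhr2, at a mean of 90.9 CPM in knockdown and 87.5 CPM in control embryos. Knockdown libraries 5 and 8 of experiment 3 stood apart: their median Spearman correlation with the other embryos was 0.489 and 0.465, against 0.617 to 0.873 for all others. Oocyte transcripts summed to 17886 CPM in embryo 5, within the range of the other knockdown embryos (2908 to 21871 CPM), and to 48822 CPM in embryo 8, above it. Their 2-cell transcripts summed to 939 and 1599 CPM, under the 2439 CPM of the lowest other knockdown embryo. Mitochondrial transcripts summed to 174451 CPM in embryo 5 and 108580 CPM in embryo 8, against at most 140697 CPM in other knockdown embryos and 160082 CPM in control embryos. Results that rest on them are given with and without.

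Several of the genes are read from more than one start, and in these embryos the upstream start of Dnmt1 and of Dnmt3l and the internal start of Dnmt3a carried the largest share of the counts. Dnmt1 (chromosome 9, 20907209 to 20959888, minus strand, GRCm38) is known to use a separate first exon in oocytes, whose product lacks the N-terminal end of the somatic protein. Dnmt1-202, which starts at 20959888 and has a coding length of 4503 bases, held a median of 83.6% of the Dnmt1 counts in knockdown embryos and 81.8% in control embryos. Dnmt1-201, which starts further downstream at 20952979 and codes for the longer protein (4860 bases), held 12.9% in knockdown and 15.4% in control embryos. The share of Dnmt1-201 ran from 0 to 59.9% over knockdown and from 0 to 44.4% over control embryos. Both transcripts share most of their body, so their shares are estimates, and the part of the estimation in this range was not tested.

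Dnmt3a (chromosome 12, 3806007 to 3914443, plus strand) encodes a long and a short protein, the short one starting from an internal promoter and known from germ cells and embryonic stem cells. Dnmt3a-205, which starts inside the gene at 3891728 and has a coding length of 2067 bases, held a median of 50.3% of the counts in knockdown and 48.4% in control embryos. Dnmt3a-218, which starts at 3807160 and codes for the long form (2724 bases), held 26.4% in knockdown and 25.7% in control embryos. Per transcript length Dnmt3a-205 held 38.6% in knockdown and 37.9% in control embryos. Dnmt3a-218, the longer RNA, held 5.61% in knockdown and 5.28% in control embryos on that scale. The 501-base model Dnmt3a-210 held 23.4% in knockdown and 20.4% in control embryos. For Dnmt3l (chromosome 10, 78041947 to 78063622, plus strand), which is known to use different promoters in female and male germ cells, Dnmt3l-205 starting at 78042287 held 89.3% of the counts in knockdown and 90.7% in control embryos. Dnmt3l-202, which starts at 78055335, held 3.11% in knockdown and 2.6% in control embryos.

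The bases before 5 of these starts are printed to let their CG content be compared, each with the 250 bases upstream of the start from RefSeq (GRCm38.p6), 5′ to 3′ on the strand of the gene, with every CG in capitals. The Dnmt1 upstream start lies at chr9:20959889-20960138 on the minus strand, the downstream CG-rich Dnmt1 start at chr9:20952624-20952873 on the minus strand, the Dnmt3a long start at chr12:3806910-3807159, the Dnmt3a internal start at chr12:3891494-3891743 and the Dnmt3l start at chr10:78042037-78042286, the last 3 on the plus strand.
Dnmt1 upstream start: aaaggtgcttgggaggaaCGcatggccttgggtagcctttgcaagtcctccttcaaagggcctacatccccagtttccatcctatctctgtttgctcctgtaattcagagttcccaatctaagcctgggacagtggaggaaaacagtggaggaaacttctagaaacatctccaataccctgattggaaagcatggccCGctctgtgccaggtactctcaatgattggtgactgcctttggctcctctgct
Dnmt1 downstream start: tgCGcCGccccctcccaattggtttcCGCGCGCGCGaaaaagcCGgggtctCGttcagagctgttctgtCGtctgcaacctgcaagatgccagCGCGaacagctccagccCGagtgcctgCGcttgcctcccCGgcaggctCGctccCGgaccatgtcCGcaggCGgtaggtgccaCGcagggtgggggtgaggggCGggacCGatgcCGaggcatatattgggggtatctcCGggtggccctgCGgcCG
Dnmt3a long start: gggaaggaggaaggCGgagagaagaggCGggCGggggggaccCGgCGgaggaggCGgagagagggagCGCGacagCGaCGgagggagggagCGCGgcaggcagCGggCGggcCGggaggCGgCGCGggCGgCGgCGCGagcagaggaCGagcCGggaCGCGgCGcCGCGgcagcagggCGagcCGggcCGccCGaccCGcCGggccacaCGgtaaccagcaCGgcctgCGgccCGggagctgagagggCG
Dnmt3a internal start: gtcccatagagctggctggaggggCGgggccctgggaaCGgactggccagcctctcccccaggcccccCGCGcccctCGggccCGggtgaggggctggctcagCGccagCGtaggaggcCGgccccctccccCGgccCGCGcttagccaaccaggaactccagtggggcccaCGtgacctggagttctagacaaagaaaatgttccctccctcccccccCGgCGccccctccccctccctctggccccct
Dnmt3l start: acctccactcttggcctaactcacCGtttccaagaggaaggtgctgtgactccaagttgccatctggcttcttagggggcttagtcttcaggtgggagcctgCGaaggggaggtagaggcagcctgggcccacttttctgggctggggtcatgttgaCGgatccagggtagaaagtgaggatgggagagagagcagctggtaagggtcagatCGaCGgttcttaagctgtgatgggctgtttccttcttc

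The upstream Dnmt1 stretch held 2 CG and the Dnmt3l stretch 5, while the downstream Dnmt1 stretch held 26. The start site of that stretch lies 356 bases past the start of Dnmt1-201, so the stretch falls inside the transcribed region of Dnmt1-201. The stretch before the start of Dnmt1-201 itself held 7 CG. In Dnmt3a the internal stretch, whose RefSeq start site lies 16 bases past that of Dnmt3a-205, held 15 CG and the long one 40. Over 32851 RefSeq windows of 300 bases (250 before and 50 after the start) the median was 7 CG. The upstream Dnmt1 window, at 2 CG, had more than 14.1% of all windows, and the long Dnmt3a window, at 47 CG, more than 98.6%. The letters AAGGTCA, the core of the site known for NR5A receptors, were searched on both strands. They were in 0 of 15 windows of 8 of the genes (Dppa3 was not among them) and in 4.72% of all windows. The longer TCAAGGTCA, which contains AAGGTCA, was in 0 of 15 and in 0.423%. The only Tet1 window lies 11794 bases from the nearest start of a tested Tet1 transcript, so the starts of those transcripts were not searched. A Dnmt3l window lies 5493 bases from the nearest such start, and tested Tet3 starts farther upstream had no window. With so few windows and so low a background share, 0 of 15 cannot decide whether these genes lack the site.

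**Figure D1:**
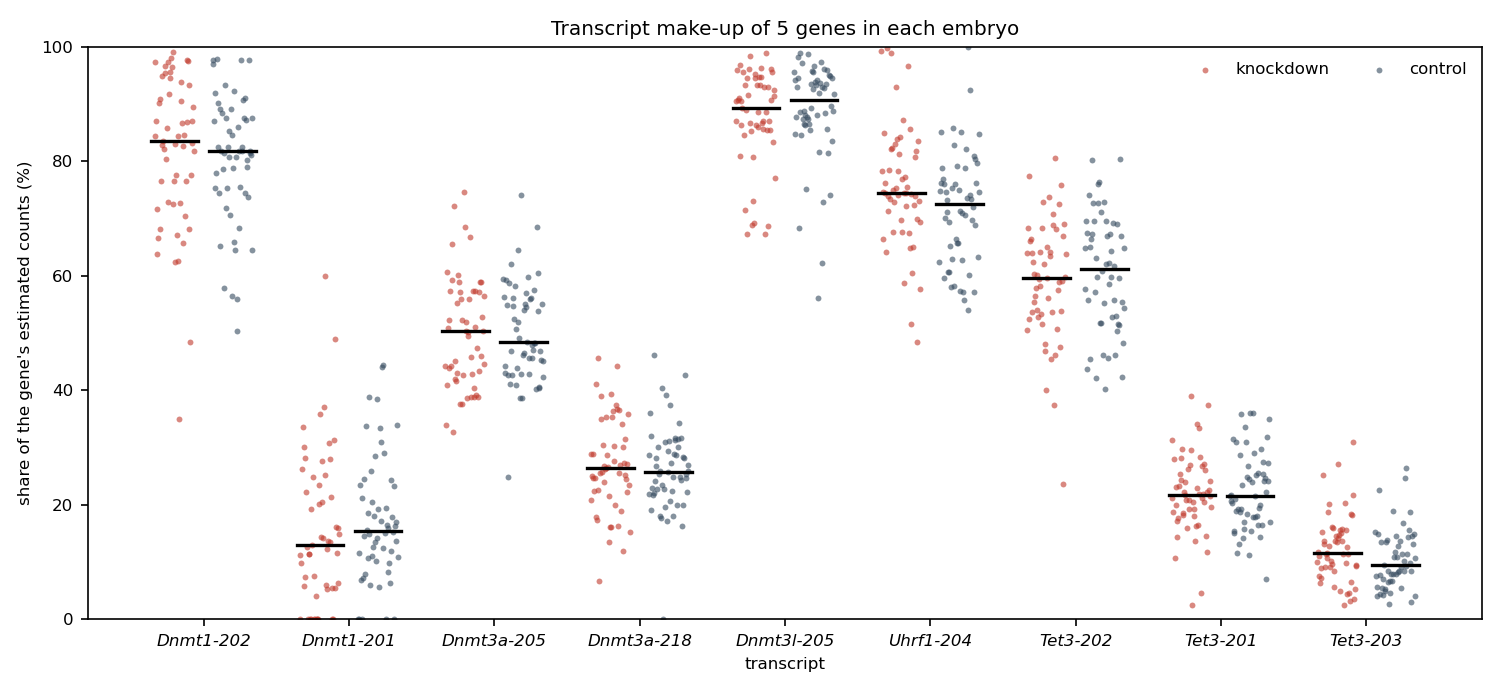
Share of each gene's estimated counts (percent) held by 9 transcripts of 5 genes, 1 point per embryo, 55 knockdown embryos left of 56 control embryos, with bars at the medians. Dnmt1-202 and Dnmt3l-205 lie high in both arms (medians of 83.6% and 89.3% in knockdown embryos, and of 81.8% and 90.7% in control embryos), and for every transcript the arms overlap.

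No transcript of the 9 genes was called between knockdown and control embryos, with a background of 0.325% of 25196 transcripts called. Of the 79 annotated transcripts of these genes in the table, 29 were tested; edgeR called 0, 0 had an unadjusted p under 0.05 (against 6.23% of all transcripts), and DESeq2 called 0. Dnmt1-202 averaged 97.5 ± 37.5 CPM in knockdown and 98.1 ± 36.9 CPM in control embryos (SD, n = 55 and 56). Dnmt3a-205 averaged 71.4 ± 21.9 CPM in knockdown and 70.2 ± 23.6 CPM in control embryos. With no filter on low counts 1 transcript was called, Uhrf1-207, a short model with 11 counts in 4 knockdown embryos and 0 in control embryos. The authors' deposited table, computed per transcript over all embryos, gave its smallest p among the 29 to Dnmt3a-204 (log2 fold change -0.59, adjusted p = 0.612), so it too called none of them.

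For Uhrf1 1 form led in counts and per length, while for Tet3 and Tet1 the leading form depended on whether length was taken into account, since a long transcript gives more counts per molecule. Uhrf1-204 (chromosome 17, coding length 2346) held a median of 74.5% of the Uhrf1 counts in knockdown and 72.6% in control embryos, and per length 74.5% in knockdown and 71.8% in control embryos. Tet3-202, with a coding length of 5004 bases, held 59.6% of the Tet3 counts in knockdown and 61.3% in control embryos, and the longer-coding Tet3-203 (5409 bases) held 11.6% in knockdown and 9.38% in control embryos. Tet3-201, annotated as a processed transcript with no coding sequence, held 21.7% in knockdown and 21.6% in control embryos. Per length Tet3-202 held 19.2% in knockdown and 19% in control embryos, below Tet3-201 (29.2% in knockdown and 29.7% in control embryos) and the 469-base model Tet3-204 (46.3% in knockdown and 47% in control embryos). The Tet1 counts were split between the 463-base model Tet1-208 (48.2% in knockdown and 49.2% in control embryos), which codes for only 142 bases, and the full-length Tet1-206 (46.4% in knockdown and 43.6% in control embryos), whose coding length is 6117 bases. Per length Tet1-208 held 92.5% in knockdown and 91.5% in control embryos, and Tet1-206 held 2.85% in knockdown and 2.65% in control embryos.

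To compare genes with each other, counts were divided by transcript length and scaled to a common total per embryo (TPM). Dppa3 (chromosome 6, 122626410 to 122630272, plus strand) stood highest, with a median of 2713 TPM over all embryos, and only 24 of 13385 genes had a higher median. Dnmt3l at 122 TPM, Dnmt3a at 118, Tet3 at 94.9 and Uhrf1 at 92.2 lay close together with each transcript at its own length, and neighbours changed places between embryos: Dnmt3l lay above Dnmt3a in 47.7% of the embryos and Tet3 above Uhrf1 in 54.1%. Dnmt1 had a median of 40.9 TPM and lay below Uhrf1 in 91.9% of the embryos. Dnmt3b at 9.6 TPM and Tet2 at 8.39 TPM were the lowest, and on this scale did not separate from each other (Dnmt3b higher in 60.4% of the embryos).

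The order depended on the length used. With each transcript at its own length Tet1 came second, at 353 TPM, above Dnmt3l in 94.6% of the embryos. Assigned the length of its longest transcript, its median was 33.8 TPM, below Tet3 (39) and Dnmt1 (42.2). On that scale Tet3 and Dnmt3a (31.5 TPM) also ranked below Dnmt1 and well below Dnmt3l (147 TPM) and Uhrf1 (114 TPM), so the 4 genes no longer lay close together. Dppa3 kept the first place, at 3600 TPM, and Tet2 the last, at 3.01 TPM, apart from Dnmt3b at 10.9 TPM.

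The main question was whether the 9 genes respond to loss of Nr5a2. edgeR's quasi-likelihood test, with experiment as a factor, called 0 of the 9 at an adjusted p under 0.05, beside a background of 1.1% of 13396 genes called. At an unadjusted p under 0.05 the count in this fit was also 0 of 9, against 9.5% of all genes, and DESeq2 and limma-voom called 0. The unadjusted p of Dppa3 depended on the method. It was 0.0379 with DESeq2 and 0.108 with limma-voom. In edgeR it was 0.0408 with relative log expression and 0.0323 with upper quartile scaling in place of TMM. The median log2 fold change of the 9 was 0.019, the same as over all genes tested, with 7 positive and 2 negative (54.9% of all genes were positive). That split has no fixed direction: it was 3 positive and 6 negative with library totals in place of TMM, and likewise 3 and 6 without the 2 libraries that stood apart. The 95% intervals of the fold changes, knockdown over control, reached no lower than 0.813 (Dnmt1) and no higher than 1.36 (Dppa3). The narrowest was that of Dnmt3a, from 0.928 to 1.11. Without the 2 libraries that stood apart the lowest bounds were 0.765 (Uhrf1) and 0.796 (Dnmt3l), and the highest was 1.35 (Dppa3).

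**Figure D2:**
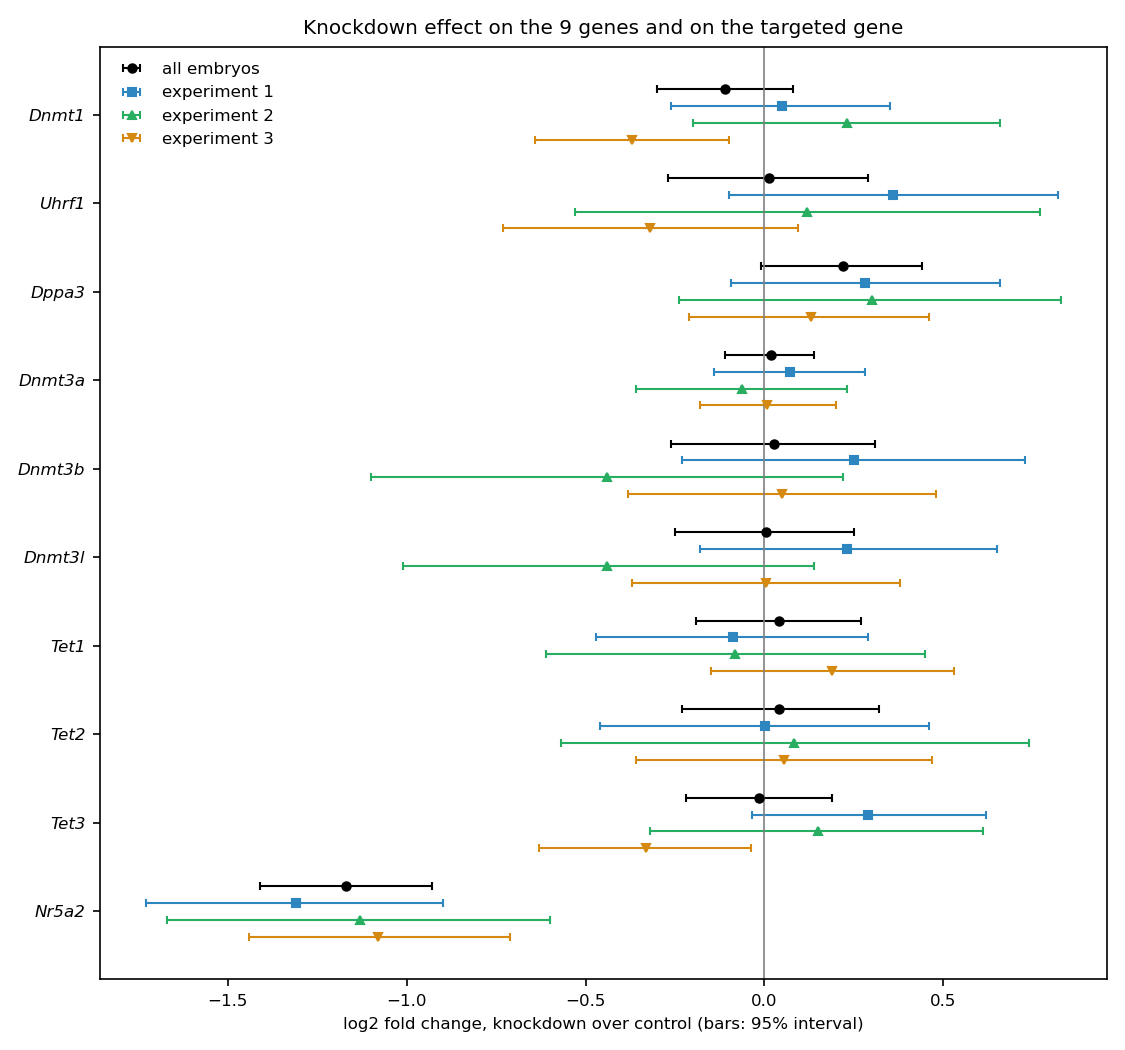
Log2 fold change of knockdown over control with its 95% interval (bars) for the 9 genes and for Nr5a2, over all embryos (black circles) and in experiments 1, 2 and 3 (squares, upward and downward triangles). All 9 intervals over all embryos include 0, while Nr5a2 lies at -1.17; in experiment 3 the intervals of Dnmt1 and Tet3 lie below 0.

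Among the maintenance and protection factors, Dppa3 came nearest to a difference. It averaged 1448 ± 546 CPM in knockdown and 1234 ± 441 CPM in control embryos (SD), 0.22 higher on the log2 scale (SE 0.11, edgeR p = 0.0611, adjusted p = 0.568). Its levels spanned 425 to 2684 CPM in knockdown embryos and 270 to 2125 CPM in control embryos, so the arms overlapped over most of their range. Of 55 knockdown embryos 36 exceeded the median of the controls run beside them, and the fold change was positive in each experiment (0.28, 0.30 and 0.13 in experiments 1, 2 and 3). Within the groups, Dppa3 ran from 425 through a median of 1078 to 2592 CPM in knockdown embryos of experiment 1, against 270, 1106 and 2125 CPM in its controls. In experiment 2 the lowest, median and highest were 1054, 1499 and 1973 CPM in knockdown embryos, against 349, 1148 and 1693 CPM in controls. In experiment 3 they were 476, 1770 and 2684 CPM in knockdown embryos, against 657, 1370 and 1994 CPM in controls. The knockdown median was thus the higher one in experiments 2 and 3 and not in experiment 1, and the ranges overlapped in all 3.

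Dnmt1 averaged 120 ± 43 CPM in knockdown and 120 ± 41.9 CPM in control embryos, and its log2 fold change was -0.11 (SE 0.10; edgeR, adjusted p = 0.841). In experiment 1 its lowest, median and highest values were 46.8, 105 and 193 CPM in knockdown embryos, against 57.7, 95.5 and 178 CPM in controls. In experiment 2 they were 103, 158 and 258 CPM in knockdown embryos, against 97.1, 139 and 186 CPM in controls. The knockdown median was higher in both. In experiment 3 they were 39.7, 98.9 and 191 CPM in knockdown embryos, against 50.6, 126 and 229 CPM in controls, with 18 of 23 knockdown embryos below the control median.

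Uhrf1 (chromosome 17, 56303321 to 56323486, plus strand) averaged 215 ± 153 CPM in knockdown and 197 ± 88.1 CPM in control embryos, a coefficient of variation of 71.2% in knockdown and 44.7% in control embryos. Its log2 fold change was 0.012 (SE 0.14, edgeR adjusted p = 0.995), and -0.12 (SE 0.13) without the 2 libraries that stood apart. In experiment 1 the lowest, median and highest were 62.3, 194 and 669 CPM in knockdown embryos, against 92.8, 170 and 280 CPM in controls. In experiment 2 they were 155, 251 and 574 CPM in knockdown embryos, against 116, 245 and 445 CPM in controls. Knockdown embryos of experiment 1 thus reached well past the highest control. In experiment 3 they were 44.1, 108 and 852 CPM in knockdown embryos, against 64.4, 176 and 579 CPM in controls. There 19 of 23 knockdown embryos lay below the control median, and the value of 852 CPM belonged to embryo 8, 1 of the libraries that stood apart.

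Of the de novo methylation genes, Dnmt3a was the steadiest of the 9, with a coefficient of variation of 20.6% in knockdown and 23.1% in control embryos. It averaged 142 ± 29.3 CPM in knockdown and 138 ± 32 CPM in control embryos, with a log2 fold change of 0.019 and a 95% interval of -0.11 to 0.14. Its medians in experiments 1, 2 and 3 were 141, 144 and 136 CPM in knockdown embryos, against 134, 155 and 137 CPM in controls. Dnmt3l averaged 127 ± 63.8 CPM in knockdown and 126 ± 55.5 CPM in control embryos (log2 fold change 0.0034, SE 0.13). Its medians were 138 and 123 CPM in knockdown embryos of experiments 1 and 2, against 121 and 136 CPM in controls, and in experiment 3 the knockdown median (110 CPM) lay just under that of the controls, so neither gene kept one order between the arms. Dnmt3b (chromosome 2, 153649450 to 153687730, plus strand), a de novo enzyme known mainly from later embryos, was low at 22.9 ± 10.7 CPM in knockdown and 21.7 ± 11.4 CPM in control embryos. It ranged from 6.83 to 47.4 CPM over knockdown and from 0.764 to 70 CPM over control embryos, and its log2 fold change was 0.028 (SE 0.14). Its medians were 21.9, 24.4 and 21.1 CPM in knockdown embryos, against 18.7, 26.9 and 22.1 CPM in controls. None of these 3 passed the test, and their arms overlapped throughout.

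Among the dioxygenases, Tet3 (chromosome 6, 83362373 to 83459084, minus strand) averaged 204 ± 94.4 CPM in knockdown and 198 ± 61.9 CPM in control embryos, with a log2 fold change of -0.015 (SE 0.10). In experiment 1 its lowest, median and highest were 58.2, 219 and 505 CPM in knockdown embryos, against 94.5, 188 and 345 CPM in controls. In experiment 2 they were 151, 215 and 407 CPM in knockdown embryos, against 138, 182 and 326 CPM in controls. The knockdown median was higher in both of these experiments. In experiment 3 they were 91.2, 133 and 390 CPM in knockdown embryos, against 114, 183 and 380 CPM in controls, and 17 of 23 knockdown embryos lay below the control median. Tet1 (chromosome 10, 62804570 to 62908996, minus strand), known for its role in germ cells and pluripotent cells, averaged 222 ± 82.6 CPM in knockdown and 216 ± 88.6 CPM in control embryos (log2 fold change 0.042, SE 0.12). Its medians were 211, 217 and 238 CPM in knockdown embryos of experiments 1, 2 and 3, against 207, 186 and 205 CPM in controls, but the fitted log2 fold changes in experiments 1 and 2 were -0.087 and -0.081, so medians and fit gave no common direction. Tet2 (chromosome 3, 133463679 to 133545139, minus strand), best known from blood cells, averaged 12.9 ± 6.38 CPM in knockdown and 13 ± 5.37 CPM in control embryos (log2 fold change 0.041, SE 0.14). Its medians were 13.8, 9.07 and 11.6 CPM in knockdown embryos, against 14.9, 12.3 and 11.8 CPM in controls.

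**Figure D3:**
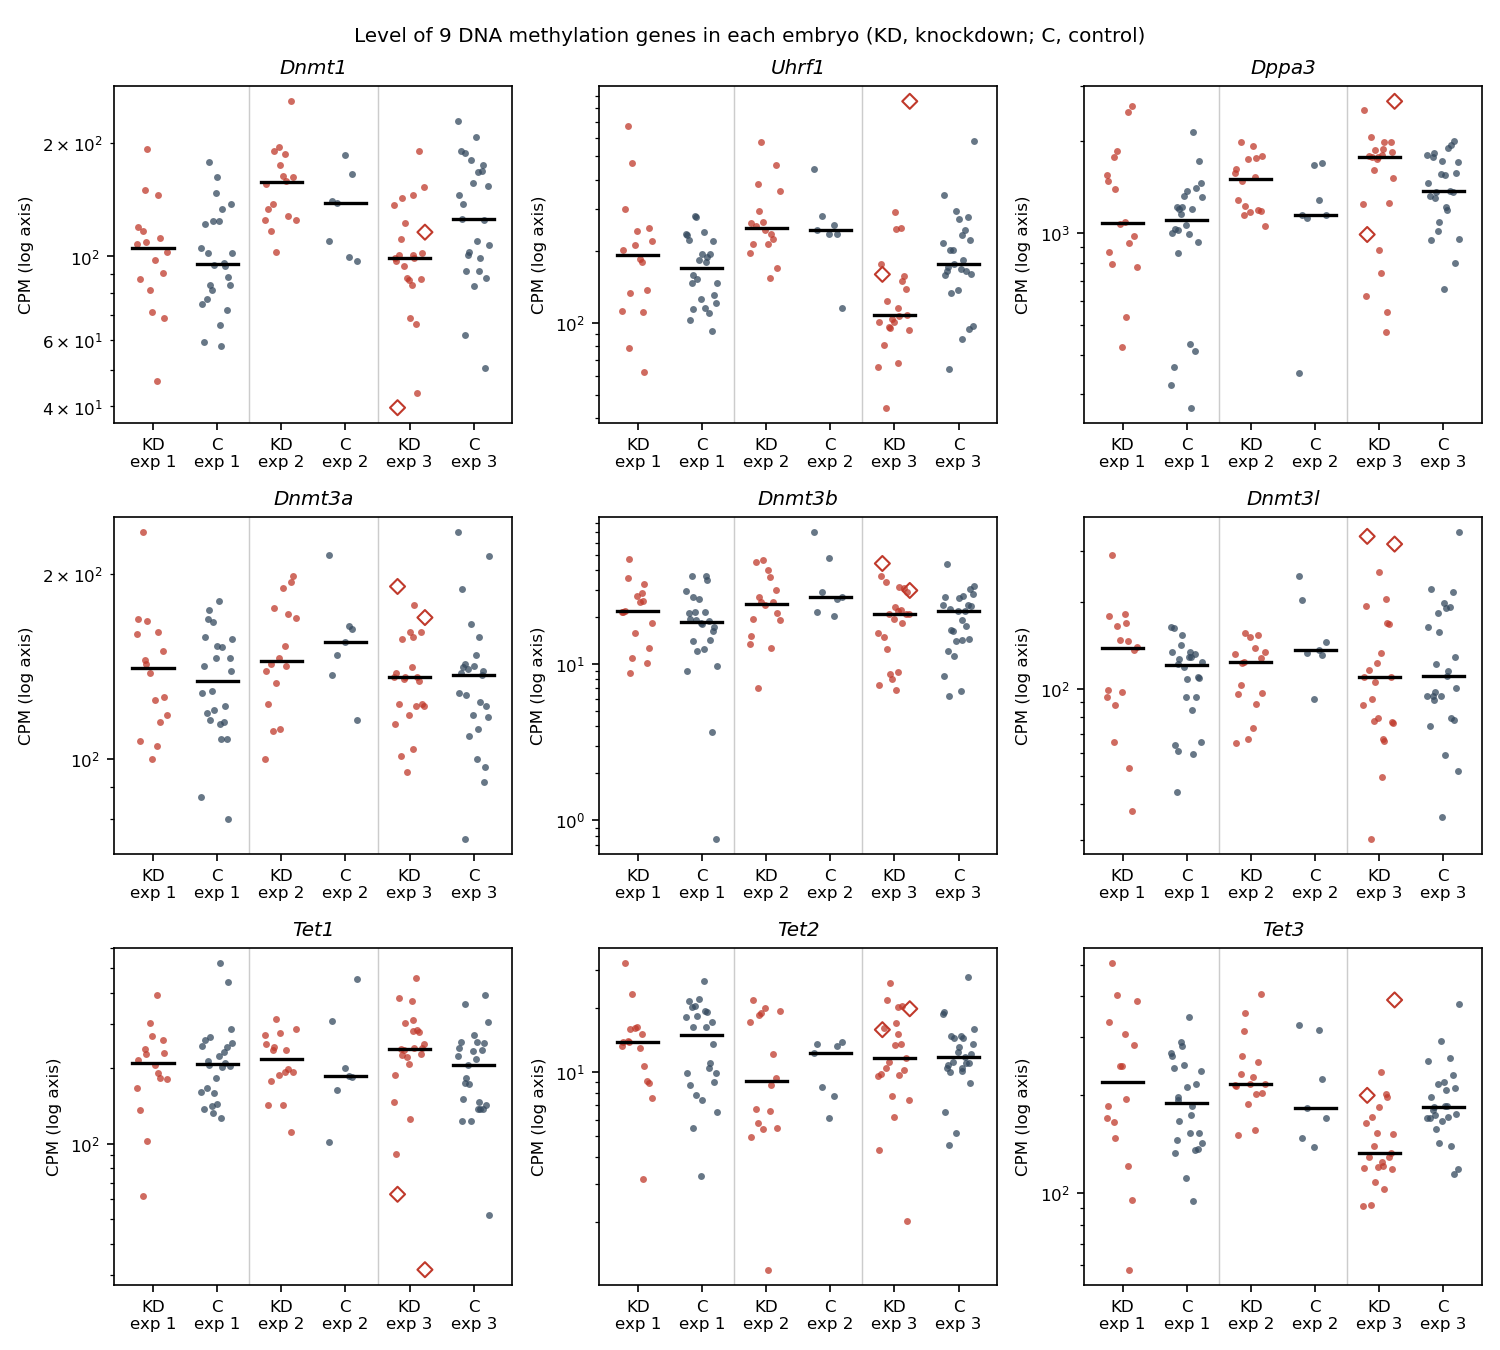
CPM (log axis) of each gene in every embryo, knockdown (KD, red) left of control (C, grey) within experiments 1 to 3, with bars at the medians and the 2 knockdown libraries that stood apart as open diamonds. In experiment 3 the knockdown medians of Uhrf1, Tet3 and Dnmt1 (108, 133 and 98.9 CPM) lie under the control medians (176, 183 and 126 CPM), and the ranges overlap in every panel.

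Taken experiment by experiment, Uhrf1, Tet3 and Dnmt1 had positive fold changes in experiments 1 and 2 and negative ones in experiment 3. The model of the 6 groups called 0 of the 9 genes in each experiment, with backgrounds of 0.933%, 0% and 0.149% of genes called in experiments 1, 2 and 3. In experiment 3, 2 of 9 genes had an unadjusted p under 0.05, against 7.16% of all genes. For Dnmt1 the log2 fold change there was -0.37 (SE 0.14, edgeR p = 0.00797, adjusted p = 0.5). Tet3 had -0.33 (SE 0.15, edgeR p = 0.0276, adjusted p = 0.627), and Uhrf1 -0.32 (SE 0.21, edgeR p = 0.129, adjusted p = 0.84). Without the 2 libraries that stood apart, Uhrf1 had -0.64 (SE 0.19, edgeR p = 0.0011, adjusted p = 0.184). Tet3 then had -0.45 (SE 0.14, edgeR p = 0.0021, adjusted p = 0.244) and Dnmt1 -0.33 (SE 0.14, edgeR p = 0.017, adjusted p = 0.459). None of these passes the threshold after adjustment.

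The test of the difference between experiments itself called 0 of the 9, beside a background of 0.0149% of genes called, and DESeq2 and limma-voom also called 0. At an unadjusted p under 0.05 there were 2 of 9, against 5.66% of all genes: Tet3 (edgeR p = 0.0168, adjusted p = 0.789) and Dnmt1 (edgeR p = 0.0309, adjusted p = 0.877). Between experiments 1 and 3 the log2 fold changes differed by 0.63 for Tet3 (SE 0.22) and by 0.68 for Uhrf1 (SE 0.31). Leaving out the 2 libraries, the interaction gave Uhrf1 an edgeR p of 0.00184 (adjusted p = 0.222), against 0.0919 with them. Tet3 then had 0.00204 (adjusted p = 0.227) and Dnmt1 0.0511 (adjusted p = 0.649). In the same experiment the median of the summed oocyte transcripts was 5991 CPM in knockdown and 7504 CPM in control embryos, and that of the mitochondrial transcripts 84028 CPM in knockdown and 67675 CPM in control embryos; their part in the result was not tested. At the level of transcripts 0 of 29 were called, beside a background of 0.0198% of transcripts called, and 4 of 29 had an unadjusted p under 0.05, against 3.72% of all transcripts. These were Tet3-204, Tet3-202, Tet3-201 and Uhrf1-204. Tet3-202 had log2 fold changes of 0.23, 0.31 and -0.39 in experiments 1, 2 and 3 (edgeR p = 0.0101, adjusted p = 0.9999). Dnmt3l and Dnmt3b had their lowest fold change in experiment 2, at -0.44 each (SE 0.29 and 0.33), where only 7 control embryos were analysed. Of these 7, embryo 2 held the highest level of both genes (245 CPM of Dnmt3l and 70 CPM of Dnmt3b). The interaction p of Dnmt3b was 0.245 (edgeR, unadjusted), and 0.827 without embryos under 3000000 counts.

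Control embryos alone showed how far the level of these genes moves between experiments. None of the 9 was called across the 3 control groups, beside a background of 10.9% of genes called; 3 of 9 had an unadjusted p under 0.05, against 24.5% of all genes, and DESeq2 and limma-voom called 0. Dnmt1 averaged 103 ± 32.2 CPM in controls of experiment 1 and 134 ± 47 CPM in those of experiment 3, a log2 difference of -0.38 (SE 0.14, edgeR adjusted p = 0.0616). Dnmt3b averaged 19.1 ± 9.3 CPM in controls of experiment 1 and 34.6 ± 18.1 CPM in those of experiment 2 (log2 difference -0.86, SE 0.31, edgeR adjusted p = 0.0895). Its unadjusted p across the 3 control groups was 0.018 (edgeR), and 0.216 without embryos under 3000000 counts. Its highest value in controls of experiment 2, 70 CPM, was that of embryo 2. Dppa3 averaged 1057 ± 451 CPM in controls of experiment 1 and 1413 ± 370 CPM in those of experiment 3 (log2 difference -0.42, SE 0.17, edgeR adjusted p = 0.103).

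Some of the 9 genes varied together within the groups and others did not. Over the 36 pairs r had a median of -0.011 with 16 positive. Of them 41.7% had an absolute r of at least 0.3. The share was 46.2% of all pairs among 6842 genes with a mean of at least 20 CPM. At 0.6 the shares were 8.33% of the 36 pairs and 10.4% of all pairs. The 36 include the pairs with Tet2, which at a mean of 12.9 CPM is under that cut. Their absolute r was at most 0.279, so they lower both shares of the 36. Correlations past these cuts were thus also frequent among other genes, but the shares do not compare like sets. After the mean of each group was removed, Uhrf1 and Tet3 correlated across all embryos with a Pearson's r of 0.746, Uhrf1 and Dnmt3l with 0.650, and Dnmt3l and Tet3 with 0.631, each positive in 6 of 6 groups. Dppa3 ran the other way, with r of -0.489 to Dnmt3l and -0.330 to Uhrf1, negative in 6 of 6 groups, and went with Dnmt1 (r = 0.445, positive in 5 of 6 groups). Tet1 was inversely related to Dnmt3a (r = -0.486) and to Uhrf1 (r = -0.483). Without the 2 libraries that stood apart, Uhrf1 and Tet3 gave 0.714, Dnmt3l and Dppa3 -0.554, and Uhrf1 and Tet1 -0.376. These values are descriptions: all genes of an embryo share 1 library and its depth, and shares of one total cannot all rise together. How many other gene pairs kept 1 sign in 6 of 6 groups was not counted.

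**Figure D4:**
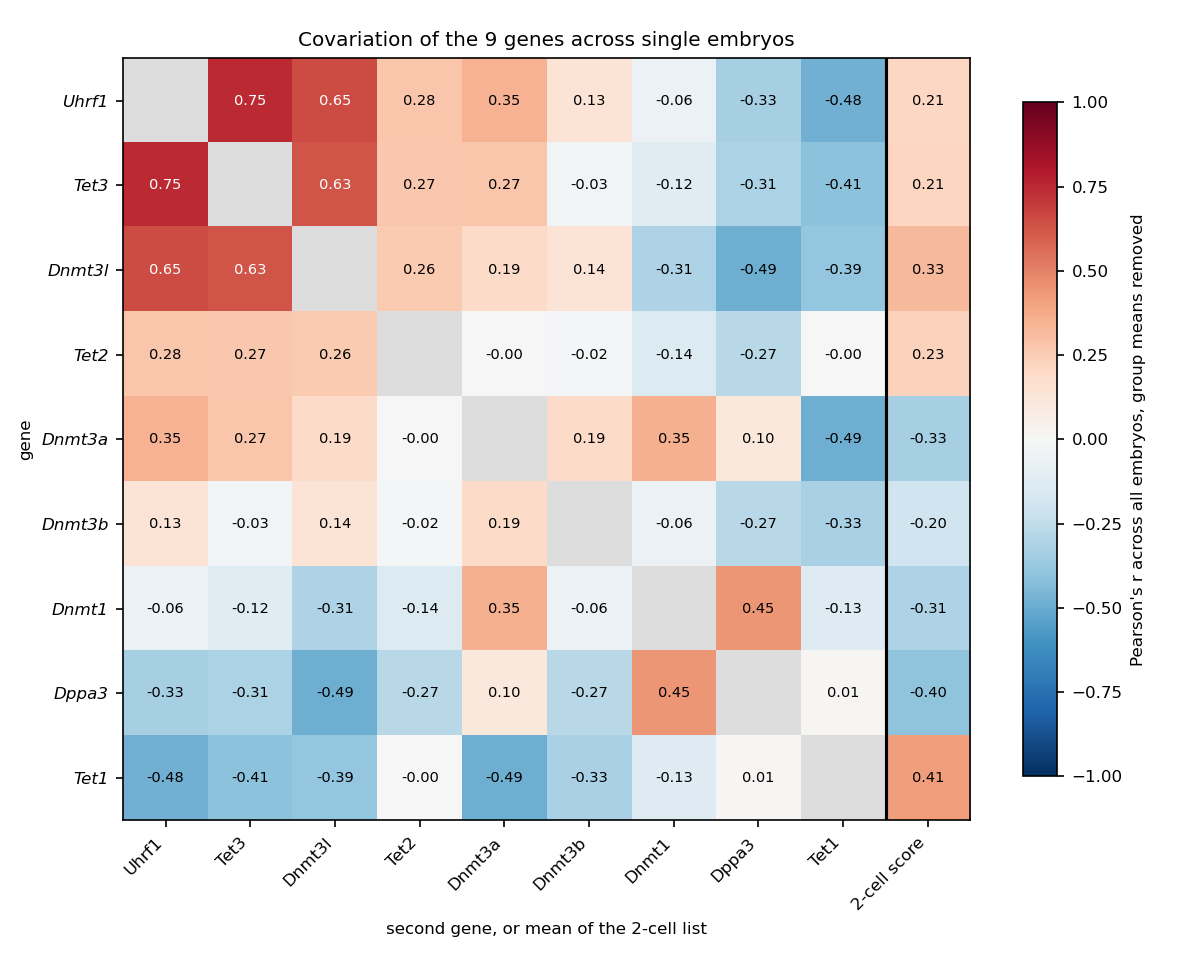
Pearson's r between the 9 genes across all embryos after the mean of each of the 6 groups was removed, and in the last column r with the 2-cell score (red positive, blue negative, colour scale from -1 to 1). Uhrf1, Tet3 and Dnmt3l form a positive block (0.746, 0.650 and 0.631), while Dppa3 and Tet1 are negative to all 3.

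The genes most like each member across embryos were named by the same measure among 6841 genes with a mean of at least 20 CPM. For Uhrf1 they were Slc45a3 (r = 0.848), the oocyte growth factor gene Gdf9 (0.839) and the lactate dehydrogenase gene Ldhb (0.837). For Tet3 they included Sfmbt1 (0.806) and Herpud2 (0.803), and for Dnmt3l they were Klhdc3 (0.871), Nsun4 (0.864) and Rnf220 (0.864). Gdf9 is on the list of oocyte transcripts, which was summed above. Dppa3 was most like Pcgf1 (0.844), Npm1 (0.829) and Snrpe (0.828), but without the 2 libraries that stood apart these ranked 12, 5 and 35 (r of 0.851, 0.873 and 0.829). The other genes named here ranked no lower than 6 without them. Tet1 was most like Cpt1a (0.802), Gm18294 (0.797) and Cenpw (0.782). The likeness was weaker for Dnmt1, at 0.589 to Zfp445, 0.588 to Ctnnb1 and 0.587 to Rae1. It was weaker still for Dnmt3a, led by Pacsin2 (0.537), Ptpn21 (0.526) and Tdrd12 (0.514), and for Dnmt3b, led by Rbms2 (0.458), Lpcat1 (0.448) and Entpd5 (0.442).

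Embryos also differed in how strongly they expressed genes of the 2-cell stage, and levels of the 9 genes were correlated with this in both directions. Such a correlation was common: 9 of the 9 and 59.4% of the 13374 tested genes outside the score had an absolute r of at least 0.2, and 2 of the 9 and 20.4% of those genes had at least 0.4. The score was the mean log2 CPM of 22 transcripts of the 2-cell stage, such as the Zscan4 and Tdpoz families, again with group means removed. Over 9 relations tested by permutation within groups (two-sided, Benjamini-Hochberg adjusted), Tet1 had the highest r at 0.415 (rho 0.403, p = 3.0e-05, adjusted p = 1.8e-04) and Dppa3 the lowest at -0.404 (rho -0.462, p = 4.0e-05, adjusted p = 1.8e-04). Both had the same sign in 6 of 6 groups. Leaving out the 2 embryos farthest from the median score gave 0.369 for Tet1 and -0.455 for Dppa3.

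Dnmt3l went with the score at r = 0.325 (rho 0.460, permutation p = 0.00106, adjusted p = 0.00238). Its r was 0.436 once the 2 farthest embryos were left out. Dnmt3a ran against it at r = -0.329 (rho -0.293, permutation p = 5.5e-04, adjusted p = 0.00165), as did Dnmt1 at r = -0.307 (rho -0.382, permutation p = 0.00162, adjusted p = 0.00292), with -0.422 once those 2 embryos were left out. Smaller positive values came from Tet2 (r = 0.233, rho 0.255, permutation p = 0.0148, adjusted p = 0.0222), Tet3 (r = 0.215, rho 0.302, permutation p = 0.0264, adjusted p = 0.034) and Uhrf1 (r = 0.206, rho 0.288, permutation p = 0.0416, adjusted p = 0.0416). Dnmt3b was negative at r = -0.202 (rho -0.230, permutation p = 0.0372, adjusted p = 0.0416). Its r was -0.139 without the 2 farthest embryos. With the 2 libraries that stood apart left out, r moved away from 0 for Dnmt3l (0.487), Dnmt1 (-0.437), Dppa3 (-0.443), Uhrf1 (0.309), Tet3 (0.308) and Tet2 (0.285), and toward 0 for Tet1 (0.348), Dnmt3a (-0.295) and Dnmt3b (-0.154). Of these 9 only Dnmt3b was then short of the threshold (permutation, adjusted p = 0.114). Without embryos under 3000000 counts Dnmt3b (r = -0.196, adjusted p = 0.0535) and Uhrf1 (r = 0.189, adjusted p = 0.073) were short of it.

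The other genes of the pathway were read from lists, beside the same background of 1.1% of genes called and of 9.5% with an unadjusted p under 0.05. In each of 6 lists edgeR called 0 genes, while DESeq2 called 1 (Nsd2) and limma-voom called 1 (Ogt, an O-GlcNAc transferase gene). Of the cofactors of maintenance methylation and further methyltransferases 11 of 11 were tested and 0 had an unadjusted p under 0.05. The smallest p was at Uhrf2, the paralogue of Uhrf1 (log2 fold change 0.15, SE 0.11, edgeR adjusted p = 0.759). Of the repair genes of active demethylation 17 of 19 were tested and 2 had an unadjusted p under 0.05. Of the genes with a methyl-CpG-binding domain and related genes 7 of 9 were tested and 0 had an unadjusted p under 0.05. Mbd3 came first (log2 fold change -0.18, SE 0.16, edgeR adjusted p = 0.833).

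Of the TET partners and ubiquitin ligase subunits 9 of the 10 genes with counts were tested and 3 had an unadjusted p under 0.05. The smallest p was that of Samhd1, a dNTP hydrolase, at 57.9 ± 22.5 CPM in knockdown and 46 ± 17.1 CPM in control embryos (edgeR adjusted p = 0.166). Ogt, the gene limma-voom called, was lower in knockdown embryos in edgeR's fit without passing its threshold, at 59.2 ± 32 CPM in knockdown and 77.7 ± 35.9 CPM in control embryos (log2 fold change -0.41, SE 0.14, edgeR adjusted p = 0.176). In the methyl donor cycle 16 of 16 were tested and 1 had an unadjusted p under 0.05. That was Bhmt, a homocysteine methyltransferase gene, at 21.4 ± 26.5 CPM in knockdown and 34.3 ± 39.2 CPM in control embryos (edgeR adjusted p = 0.504). Of the list of histone enzymes that shape methylation in the oocyte and related genes, 10 of 10 were tested and 3 had an unadjusted p under 0.05. Nsd2, a histone H3 lysine methyltransferase, averaged 47.3 ± 13.9 CPM in knockdown and 40.6 ± 10.1 CPM in control embryos (log2 fold change 0.24, SE 0.07, edgeR adjusted p = 0.0904). Without the 2 libraries that stood apart its adjusted p was 0.0453 (log2 fold change 0.25, SE 0.07).

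Of the tested lists that describe the embryos themselves, edgeR gave calls for the mitochondrial genome. Of 22 tested 2-cell transcripts and 20 oocyte transcripts edgeR, DESeq2 and limma-voom called 0, with 1 and 0 at an unadjusted p under 0.05 by edgeR. Tdpoz5 had the smallest p among the first (log2 fold change -0.36, SE 0.15, edgeR adjusted p = 0.35) and Zbed3 among the second (0.30, SE 0.17, edgeR adjusted p = 0.629). Of the cumulus markers 4 of 12 were tested and edgeR, DESeq2 and limma-voom called 0, with Tnfaip6 first (0.42, SE 0.26, edgeR adjusted p = 0.694). Of 13 mitochondrial transcripts 6 rose in knockdown embryos, against 0.627% of all genes called in that direction, with a median log2 fold change of 0.31 over the 13, and 4 rose without the 2 libraries. They were mt-Nd2 (0.44), mt-Nd3 (0.44), mt-Co2 (0.42), mt-Atp8 (0.37), mt-Nd4l (0.32) and mt-Nd5 (0.31), each a log2 fold change with an SE of 0.08 or 0.09 and an edgeR adjusted p between 8.0e-04 and 0.036. DESeq2 called 6 of the 13, limma-voom 5, and edgeR with the embryo number as a replicate block 1. The median sum of the 13 in knockdown embryos was 77740, 62559 and 84028 CPM in experiments 1, 2 and 3. In control embryos it was 76071, 59615 and 67675 CPM, so the arms lay farthest apart in experiment 3.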

How the data were processed

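Per the labels' protocols, polyadenylated RNA of single 2-cell embryos was primed with oligo dT and sequenced after SmartSeq2, without molecular identifiers in the sources used here, and overlapping genes on opposite strands can share reads. Per the submitters' processing notes, kallisto 0.46.1, DESeq2 1.32.0, Trim Galore 0.6.2, bcl2fastq and R 3.5.1 were used, and the builds mm10 and hg19 are named without a role. Per the file headers, the authors deposited an estimated count for each transcript and embryo, and the values carry no normalization. The authors' deposited table of comparisons holds log2 fold changes and p-values per transcript. A batch-adjusted table, a normalized table and a table under a 10th percentile threshold were not used here. In experiment 2 the controls begin with embryo 2, and the counts hold no control embryo 1.

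The 117194 of 119358 transcript rows with a gene name were summed by name and rounded. Rows without one (median 1.02% of the counts, 0.777% to 1.39%) stayed out of library sizes and tests. No 2 libraries were identical (highest r 0.974). Genes and, separately, 25196 transcripts were fitted with edgeR 4.0.16 in R 4.3.3 (filterByExpr by arm, TMM, quasi-likelihood F-test, experiment as a factor, 107 residual degrees of freedom, Benjamini-Hochberg threshold 0.05 over all features). The biological coefficient of variation was 0.616. A model of the 6 groups gave effects per experiment, their interaction and the comparison of controls. DESeq2 1.42.0 and limma 3.58.1 (voom) were alternatives. SEs come from the fold change and F. CPM use TMM-scaled library sizes. TPM use transcript lengths of GENCODE M21 (GRCm38), which held 99.2% of the named transcripts, and positions are from that annotation. The correlations with the 2-cell score used log2 CPM (prior count 2) and 100000 permutations within groups with numpy 2.4.6, for which the smallest p is 1e-05.

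The 9 genes, the lists and the tests were chosen with earlier results of these data known. The text names all 9 genes, of each other list the genes called or else the one with the smallest p, and for each of the 9 with a mean of at least 20 CPM the 3 genes with the highest r; 2 genes that this rule names are not reported here. The removal of 2 libraries (median Spearman correlation under 0.55 over 9051 genes) and the names Ogt, Uhrf1-207, Tet3-204 and those of other single transcripts were chosen after their values were seen.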

Additional observations from a re-analysis of the deposited data

Results flagged for a closer look

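Dppa3 in the control embryos of experiment 2 had 1 embryo far below the others. It held 349 CPM, and the next lowest of the 7 embryos held 1116 CPM, a gap of 0.570 of the range of that group. Of the 9 genes tested in this group Dppa3 alone stood out in this way. Chance flags about 1 in 20 such tests, and 9 were made here. The Dppa3 value is not unusual over the series, since control embryos of experiment 1 went as low as 270 CPM. The same library, control embryo 2, was also at the edge of its group in other genes. It held the highest Dnmt3a (215 CPM), Dnmt3b (70 CPM), Dnmt3l (245 CPM), Uhrf1 (445 CPM) and Tet3 (326 CPM) of the 7 and the lowest Tet1 (102 CPM).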

How the results depend on the processing

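No member was called between knockdown and control embryos under any of 17 alternatives, in the interaction under any of 11, or across control groups under any of 10. The count of genes called, 147, was 966 with no filter on low counts, 224 with DESeq2, 23 without experiment 1, 38 without experiment 3 and 127 without the 2 libraries that stood apart. With the embryo number as a replicate block, at the dispersion of the fit without it, 23 genes were called. Of 46 same-numbered pairs 18 had a correlation of deviations over 0.1 (median 0.0485). Pairs of unlike number were not compared, so these values cannot decide whether the numbers pair embryos. The main fit treated the embryos as unpaired. The count of member transcripts called was 1 with no filter. Among the 9 genes only Dppa3 kept the sign of its log2 fold change under all 17 (0.13 to 0.30); no reversed value passed the threshold, and the cause was not tested. With library totals Dnmt3a gave -0.024, Dnmt3b -0.019, Dnmt3l -0.05 and Uhrf1 -0.06. Dnmt3l gave -0.0052 with no filter, and Tet3 gave 0.011 with upper quartile scaling and 0.02 without embryos under 3000000 counts. With limma-voom Dnmt3l gave -0.046, Uhrf1 -0.14 and Tet2 -0.046, and with the replicate block Dnmt3l -0.10, Uhrf1 -0.15 and Tet2 -0.03. Without the 2 libraries Dnmt3a gave -0.0014, Dnmt3b -0.019, Dnmt3l -0.092 and Uhrf1 -0.12. Without experiment 1 Dnmt3a gave -0.013, Dnmt3b -0.1, Dnmt3l -0.13 and Uhrf1 -0.20, without experiment 2 Uhrf1 gave -0.015, and without experiment 3 Dnmt1 gave 0.11, Tet1 -0.072 and Tet3 0.25. Experiment 1 alone gave Dnmt1 0.056, Tet1 -0.07 and Tet3 0.31. Experiment 2 alone gave Dnmt1 0.22, Dnmt3a -0.077, Dnmt3b -0.46, Dnmt3l -0.45, Tet1 -0.082 and Tet3 0.13, and experiment 3 alone gave Uhrf1 -0.31. Nr5a2 in experiment 2 alone had -1.14 (edgeR adjusted p = 0.506). The r of Dnmt3b with the 2-cell score was no longer past the threshold with library totals (-0.172), without embryos under 3000000 counts (-0.196), with the median of the list (-0.138) or without the 2 libraries (-0.154), nor was that of Uhrf1 without embryos under 3000000 counts (0.189). With the longest transcript's length the mean TPM was 32.4 for Dnmt3a, 33.7 for Tet1, 3.13 for Tet2 and 41.2 for Tet3.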

Other observations

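The 2 knockdown libraries of experiment 3 that stood apart had high Dnmt3l (336 CPM in embryo 5 and 316 CPM in embryo 8, against a median of 116 CPM over knockdown embryos) and low Tet1 (62.9 and 31.5 CPM, against a median of 227 CPM). They differed in other genes. Embryo 8 had the highest Uhrf1 (852 CPM) and Dppa3 (2684 CPM) of the 55 knockdown embryos, and embryo 5 the lowest Dnmt1 (39.7 CPM). Nr5a2 was at 22.2 CPM in embryo 5 and 13.1 CPM in embryo 8.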
